A study of Mus musculus with 9 samples.

Results

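The TCA cycle and mitochondrial fatty acid beta-oxidation were followed through 31 named genes in alveolar cells of mouse lung. Members were chosen by gene symbol from the enzymes of both pathways and of pyruvate entry, and all 31 were found among the 55414 genes of the deposited tables and passed the filter on low counts. They comprise 3 genes of pyruvate entry, 17 genes of the TCA cycle and its malate partner, and 11 genes of fatty acid import and beta-oxidation. RNA was sequenced from 3 libraries in each of 3 groups of wild-type C57BL/6J mice, called PDK4-IN, Aged and Young here. Mice of the PDK4-IN group aged naturally to 20 months and then received PDK4-IN, an anthraquinone derivative that inhibits the kinase PDK4, once every 2 weeks for 4 months until examination at 24 months. Aged mice received vehicle on the same schedule and were examined at the same age, whereas the labels give no age for Young mice. The animals are labelled as males, while the methods of the study speak of both sexes. Cells of the pulmonary alveolus, mainly fibroblasts by their label, were collected by laser capture microdissection, which cuts chosen cells out of a section under the microscope. Captured cells were combined before lysis, and nothing in the labels says that the 3 libraries of a group came from separate animals, so the p-values below cover only how far these libraries differ from each other, and that spread may be technical.

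Mitochondria burn carbohydrate and fat through a shared final route. Pyruvate enters as acetyl-CoA through the pyruvate dehydrogenase (PDH) complex or as oxaloacetate through pyruvate carboxylase, fatty acids enter on carnitine and are shortened in repeated turns of dehydrogenation, hydration, dehydrogenation and thiolysis, and the acetyl-CoA from both is oxidised in the TCA cycle. PDK4 phosphorylates and thereby switches off the PDH complex, and in many tissues it is raised in fasting, when fat takes the place of glucose as fuel.

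Library depth ran between 19456303 and 26660364 counts. The fibroblast markers summed to 12870–14330 CPM (counts scaled to a library total of 1000000) in PDK4-IN libraries, 12010–12170 CPM in Aged libraries and 13690–15970 CPM in Young libraries. Single fibroblast markers moved both ways. At an adjusted p under 0.05 (edgeR), 5 of 15 tested rose and 8 fell in Aged against Young. In PDK4-IN against Aged 7 rose and 3 fell, and in PDK4-IN against Young 5 rose and 5 fell. Of 10 alveolar type 2 epithelium markers, 2 averaged at least 1 CPM in PDK4-IN, 3 in Aged and 2 in Young libraries. Of 10 alveolar type 1 markers, 8 did so in each group. Pdpn, Cav1 and Emp2 averaged 73.1 CPM or more in each group, and the others at most 19.8 CPM. Ager averaged 0.90, 0.56 and 0.54 CPM in PDK4-IN, Aged and Young libraries. The 20 macrophage and monocyte markers summed to 155–174 CPM in PDK4-IN libraries, 5029–5088 CPM in Aged libraries and 48.5–57.7 CPM in Young libraries. None of these 20 markers was at 0 in all libraries of the PDK4-IN or Aged group, and C1qc was at 0 in all Young libraries. The 10 proliferation markers summed to 193–202 CPM in PDK4-IN libraries, 465–469 CPM in Aged libraries and 407–436 CPM in Young libraries. Smooth muscle and pericyte markers summed to 571–577 CPM in PDK4-IN libraries, 545–558 CPM in Aged libraries and up to 2315 CPM in Young libraries, each of which stood above the other 6. In bulk RNA, fewer cells of a type and less RNA per cell cannot be told apart, and the part of these cell markers in the results below was not tested. Within the Young group, replicate 3 stood apart, as its counts differed from those of replicates 1 and 2 by 16.2 and 16.0 times the sampling noise (chi-square per degree of freedom), against 2.84 between replicates 1 and 2. Within the PDK4-IN group, replicate 1 differed from replicates 2 and 3 by 8.28 and 15.1 times the sampling noise, against 4.72 between the other two. Longer genes also had relatively fewer counts in some libraries: the slope of log2 CPM on log2 gene length, relative to the mean of all libraries, was -0.0056, -0.098 and -0.14 in PDK4-IN replicates 1, 2 and 3, between 0.054 and 0.067 in Aged libraries, and 0.067, 0.060 and -0.062 in Young replicates 1, 2 and 3.

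Per unit of length, malate dehydrogenase Mdh2 was the most abundant member. Its deposited level averaged 369 TPM (counts scaled by gene length and then by library) over the 9 libraries and stood above every value of Acadvl, the next in order at 171 TPM. Citrate synthase Cs followed at 145 TPM, and Suclg2 was lowest at 20.9 TPM. Below Mdh2, the 9-library ranges of neighbouring members overlapped at every step of the order.

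The promoters of 28 members were found among mouse RefSeq promoters (build GRCm38.p6) and searched on both strands, over the 250 bases before each start, for letters recognised by regulators of mitochondrial genes. CCGGAAG, read by ETS factors such as GABPA, stood before 4 members (Cpt2, Slc25a20, Idh3g and Sdhd) and in 6.91% of all 32851 promoters. GCATGCGC, read by NRF1, stood before Acadm, Ogdh and Sdhb and in 2.26% of all promoters. AAGGTCA, read by oestrogen-related receptors, stood before Acadm alone and in 4.08% of all promoters. The direct repeat of AGGNCA spaced by 1 base, read by PPAR with RXR, stood before none of the 28 and in 0.338% of all promoters. The shares are of promoters, and these 28 members had 34, so a gene with several starts had more chances of a match. CCGGAAG stood in 4 of the 34, AAGGTCA in 1 and GCATGCGC in 4, which include overlapping promoters of Ogdh. These matches are letters in a window and not measured sites. Parts of 3 promoters are shown. They belong to Cpt2 and Slc25a20, the carnitine shuttle genes among the members, and to Acadm, a beta-oxidation gene that passed no test. Cpt2 and Slc25a20 were called higher in PDK4-IN against Aged, while Cpt1a, the outer-membrane gene of the shuttle, was lower there. Capitals mark the letters found (CCGGAAG in Cpt2 and Slc25a20, AAGGTCA and then GCATGCGC in Acadm, read on either strand), and a further CCGGAAG of Cpt2 lies nearer its start, beyond the window shown.
Cpt2, chr4:107923611-107923719, minus strand: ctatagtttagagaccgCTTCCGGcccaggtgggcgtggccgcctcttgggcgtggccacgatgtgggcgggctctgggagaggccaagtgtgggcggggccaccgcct
Slc25a20, chr9:108662006-108662087, plus strand: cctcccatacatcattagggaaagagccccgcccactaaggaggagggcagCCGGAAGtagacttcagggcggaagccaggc
Acadm, chr3:153944644-153944893, minus strand: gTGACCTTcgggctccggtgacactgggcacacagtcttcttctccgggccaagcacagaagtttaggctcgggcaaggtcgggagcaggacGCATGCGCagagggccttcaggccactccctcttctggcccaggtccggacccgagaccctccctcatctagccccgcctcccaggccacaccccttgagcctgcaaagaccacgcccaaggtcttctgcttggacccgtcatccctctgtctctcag

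The study set aged against young lungs and PDK4-IN against vehicle in aged lungs. Aged alveolar cells had less mRNA of 6 of 17 TCA cycle genes than Young cells, among them fumarase and citrate synthase. Of all genes tested, 19.0% fell there. PDK4-IN cells had more mRNA of 9 of 11 beta-oxidation genes than Aged cells, Acadvl foremost, and of 7 TCA cycle genes. Of all genes tested, 23.9% rose there. With a 1.5-fold minimum set aside, only Acadvl, Hadh, Acaa2 and Mdh2 of these higher genes kept that call in every alternative fit. Of the 6 TCA cycle genes lower in Aged against Young, all but Cs kept theirs (Fh1, Idh3a, Mdh2, Sucla2 and Suclg2). Summed TCA cycle TPM averaged 1774 in PDK4-IN libraries and 1773 in Aged libraries. Calls were made across all genes at an adjusted p under 0.05, and the comparisons share libraries, so their values are given side by side and were not correlated.

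In Aged against Young, 2 members rose and 10 fell of 31, where 21.4% of the 16123 genes tested rose and 19.0% fell. By role, 2 of 3 pyruvate entry genes, 6 of 17 TCA cycle genes and 2 of 11 beta-oxidation genes fell. The median log2 fold change was -0.11 over the members and 0.0093 over all genes tested. In PDK4-IN against Aged, 17 members rose and 1 fell, where 23.9% of the 16275 genes tested rose and 25.7% fell. Those that rose were 9 of 11 beta-oxidation genes, 7 of 17 TCA cycle genes and 1 of 3 pyruvate entry genes, and the median was 0.18 over the members and -0.00088 over all genes. In PDK4-IN against Young, 7 members rose, all of them beta-oxidation genes, and 7 fell, where 13.3% of the 16553 genes tested rose and 15.7% fell. No TCA cycle member rose there and no beta-oxidation member fell, by edgeR or by DESeq2, and neither count changed at an unadjusted p under 0.05. The 7 that fell were 6 TCA cycle genes and Dlat.

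Every change was small. As fitted, none of the 31 members reached a 1.5-fold difference (0.585 on the log2 scale) in any comparison, and the largest log2 fold changes were -0.575 for Fh1 in Aged against Young, 0.552 for Acadvl in PDK4-IN against Aged and 0.447 for Cpt2 in PDK4-IN against Young. Of all genes tested, by contrast, 13.5% rose and 4.42% fell by at least that much in Aged against Young, 5.16% and 12.5% in PDK4-IN against Aged, and 5.89% and 4.77% in PDK4-IN against Young. Over the alternative fits the largest member value ran between 0.541 and 0.623 in Aged against Young, between 0.411 and 0.639 in PDK4-IN against Aged and between 0.407 and 0.479 in PDK4-IN against Young. It passed 1.5-fold in 6 alternatives of Aged against Young, up to 0.623 without Young replicate 1, and in 1 of PDK4-IN against Aged (0.639 without PDK4-IN replicate 1).

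**Figure D1:**
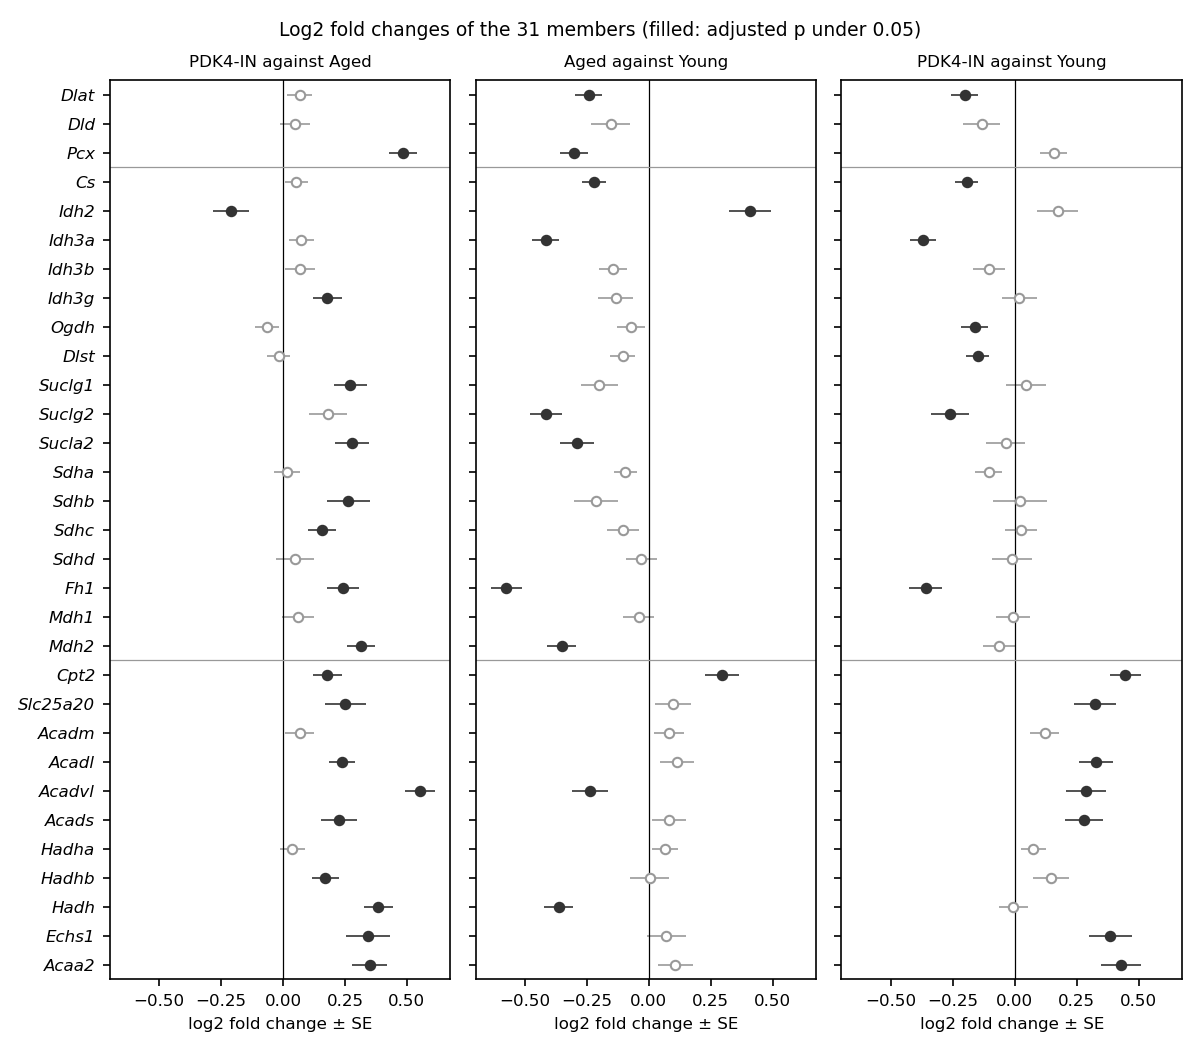
Log2 fold changes of the 31 members with their SE (edgeR, 3 libraries a group), genes running down the page by role and the zero line marking no difference. Filled points passed an adjusted p of 0.05: in PDK4-IN against Aged 17 lie right of zero and 1 left, in Aged against Young 2 right and 10 left, and in PDK4-IN against Young 7 on each side.

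Pyruvate carboxylase, Pcx, which makes oxaloacetate from pyruvate, had the lowest levels in the Aged group. It had 76.3, 79.7 and 73.8 CPM in PDK4-IN libraries, 53.5, 55.4 and 56.2 CPM in Aged libraries and 68.3, 67.1 and 66.3 CPM in Young libraries. The 3 groups did not overlap. Pcx rose in PDK4-IN against Aged (log2 fold change 0.48 ± 0.056 SE, adjusted p = 4.27e-05), fell in Aged against Young (-0.30 ± 0.056, adjusted p = 0.00176) and did not pass the test in PDK4-IN against Young (0.16 ± 0.055, adjusted p = 0.0512). Dlat, the acetyl-transferring E2 subunit of the PDH complex, had 109, 104 and 99.99 CPM in PDK4-IN libraries, 97.7, 100 and 102 CPM in Aged libraries and 122, 113 and 117 CPM in Young libraries. Its PDK4-IN and Aged libraries overlapped and both lay below all Young libraries. Dlat fell in Aged against Young (-0.24 ± 0.055, adjusted p = 0.00531) and in PDK4-IN against Young (-0.20 ± 0.054, adjusted p = 0.0156), and was not called between PDK4-IN and Aged (0.067 ± 0.051, adjusted p = 0.301). The call against Young was lost on that comparison's own 6 libraries (adjusted p = 0.0568). Dld, the E3 subunit that the PDH complex shares with other oxo-acid dehydrogenases, overlapped between groups and passed no test.

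The entry step of the cycle followed Dlat. Cs, which joins acetyl-CoA to oxaloacetate, had 271, 281 and 264 CPM in PDK4-IN libraries, 266, 263 and 262 CPM in Aged libraries and 313, 305 and 296 CPM in Young libraries. All Young libraries stood above the other 6. Cs fell in Aged against Young (-0.22 ± 0.047, adjusted p = 0.00364) and in PDK4-IN against Young (-0.19 ± 0.047, adjusted p = 0.00925), with 0.054 ± 0.045 and adjusted p = 0.345 in PDK4-IN against Aged. On the 6 libraries of PDK4-IN and Young alone, its adjusted p was 0.0522.

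At the next oxidation, Idh3a fell and Idh2 rose in Aged against Young. Idh3a, the catalytic subunit of the NAD-linked enzyme, had 78.8, 75.9 and 77.1 CPM in PDK4-IN libraries, 73.7, 74.6 and 73.1 CPM in Aged libraries and 95.6, 95.4 and 102 CPM in Young libraries. The Young libraries were the highest and the gap to the other 2 groups exceeded any spread within a group. Idh3a fell in Aged against Young (-0.42 ± 0.056, adjusted p = 0.000191) and in PDK4-IN against Young (-0.37 ± 0.054, adjusted p = 0.000378), and PDK4-IN against Aged gave 0.074 ± 0.051 (adjusted p = 0.253). Its partner subunits Idh3b and Idh3g had -0.14 and -0.13 in Aged against Young without a call (adjusted p = 0.0593 and 0.156), and Idh3g rose in PDK4-IN against Aged (0.18, adjusted p = 0.024). Idh2, the mitochondrial NADP-linked enzyme that makes NADPH, had 31.8, 30.99 and 33.0 CPM in PDK4-IN libraries, 36.7, 35.1 and 39.6 CPM in Aged libraries and 25.0, 27.9 and 30.3 CPM in Young libraries. The groups did not overlap and Aged was the highest. Idh2 rose in Aged against Young (0.41 ± 0.085, adjusted p = 0.00332) and was the only member lower in PDK4-IN against Aged (-0.21, adjusted p = 0.0298), a call that was lost by DESeq2 and in the fit of all 9 libraries (adjusted p = 0.0533). The macrophage markers given above are highest in the same 3 Aged libraries, and a link to Idh2 was not tested. As a ratio of TPM, Idh2 stood at 0.332 ± 0.013 of the mean Idh3 subunit in PDK4-IN libraries, 0.405 ± 0.029 in Aged libraries and 0.270 ± 0.0088 in Young libraries (SD, n = 3 each), with no overlap between groups.

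Ogdh and Dlst, the E1 and E2 subunits of the oxoglutarate dehydrogenase complex, were called only in PDK4-IN against Young. Ogdh had -0.16 (adjusted p = 0.0456) with overlapping groups, and Dlst had -0.15 (adjusted p = 0.0351). Neither call held when that comparison was fitted on its own 6 libraries (adjusted p = 0.125 for Ogdh and 0.111 for Dlst).

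Succinyl-CoA ligase pairs the shared alpha subunit Suclg1 with an ATP-forming beta subunit, Sucla2, or a GTP-forming beta subunit, Suclg2. Sucla2 had 97.6, 102 and 114 CPM in PDK4-IN libraries, 87.6, 84.3 and 88.6 CPM in Aged libraries and 105, 96.7 and 114 CPM in Young libraries. Suclg2 had 38.4, 44.1 and 36.8 CPM in PDK4-IN libraries, 35.0, 36.1 and 34.7 CPM in Aged libraries and 44.6, 49.3 and 45.8 CPM in Young libraries. For both, the Aged libraries were lowest. Both fell in Aged against Young, with -0.41 ± 0.064 for Suclg2 (adjusted p = 0.000513) and -0.29 for Sucla2 (adjusted p = 0.0069). In PDK4-IN against Aged, Sucla2 rose (0.28 ± 0.069, adjusted p = 0.00591) and Suclg2 did not pass the test (0.18 ± 0.076, adjusted p = 0.069), though its groups did not overlap. Suclg2 was also lower in PDK4-IN against Young (-0.26, adjusted p = 0.0237, but 0.0729 on the 6 libraries of these groups alone). Suclg1 had 73.9, 83.7 and 84.3 CPM in PDK4-IN libraries, 65.3, 69.6 and 66.8 CPM in Aged libraries and 70.4, 74.5 and 84.7 CPM in Young libraries, and rose in PDK4-IN against Aged alone (0.27 ± 0.068, adjusted p = 0.00651). On log2(TPM + 1) with limma, the PDK4-IN against Aged calls of Sucla2 (0.071, adjusted p = 0.291) and Suclg1 (0.122, adjusted p = 0.0956) were lost. The TPM ratio of Sucla2 to Suclg2 was 4.27 ± 0.41 in PDK4-IN libraries, 5.28 ± 0.43 in Aged libraries and 4.03 ± 0.26 in Young libraries (SD, n = 3 each), with every Aged library above the other 6.

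Succinate dehydrogenase, whose 4 subunits also form complex II of the respiratory chain, gave no call in Aged against Young or in PDK4-IN against Young. The flavoprotein Sdha and the membrane anchor Sdhd passed no test in any comparison. The iron-sulphur subunit Sdhb rose in PDK4-IN against Aged (0.26, adjusted p = 0.0263), as did the anchor Sdhc (0.16, adjusted p = 0.0349). The Sdhb libraries of these 2 groups overlapped, at 74.5, 88.1 and 95.6 CPM in PDK4-IN libraries and 74.9, 70.4 and 71.2 CPM in Aged libraries. Without the gene-length trend Sdhb had 0.085 (adjusted p = 0.253) and Idh3g 0.036 (adjusted p = 0.556), so neither was called. Sdhc kept its call there, but lost it in 9 other fits, among them log2(TPM + 1) with limma, where its direction turned (-0.061, adjusted p = 0.642).

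Fumarase, Fh1, which hydrates fumarate to malate, had the largest fall of all members in Aged against Young. It had 70.0, 79.8 and 74.5 CPM in PDK4-IN libraries, 61.5, 64.7 and 64.7 CPM in Aged libraries and 89.1, 93.7 and 98.9 CPM in Young libraries. PDK4-IN libraries lay between the other groups without overlap. Fh1 fell by 32.8% in Aged against Young (-0.57 ± 0.062, adjusted p = 3.58e-05), rose by 18.2% in PDK4-IN against Aged (0.24 ± 0.065, adjusted p = 0.00947) and was 22.1% lower in PDK4-IN against Young (-0.36 ± 0.068, adjusted p = 0.00228). It was the only member called in all 3 comparisons with PDK4-IN on a middle level, although the PDK4-IN against Aged call was lost without Aged replicate 1 (adjusted p = 0.0543) or PDK4-IN replicate 2 (0.0547). Mdh2, which closes the cycle by regenerating oxaloacetate, had 319, 339 and 360.1 CPM in PDK4-IN libraries, 277, 275 and 272 CPM in Aged libraries and 334, 332 and 376 CPM in Young libraries. The Aged libraries were lowest and the others overlapped. Mdh2 fell in Aged against Young (-0.35 ± 0.058, adjusted p = 0.000797) and rose in PDK4-IN against Aged (0.32 ± 0.056, adjusted p = 0.000835), with -0.064 ± 0.066 and adjusted p = 0.492 in PDK4-IN against Young. Mdh1, its cytosolic partner in the malate shuttle, passed no test.

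**Figure D2:**
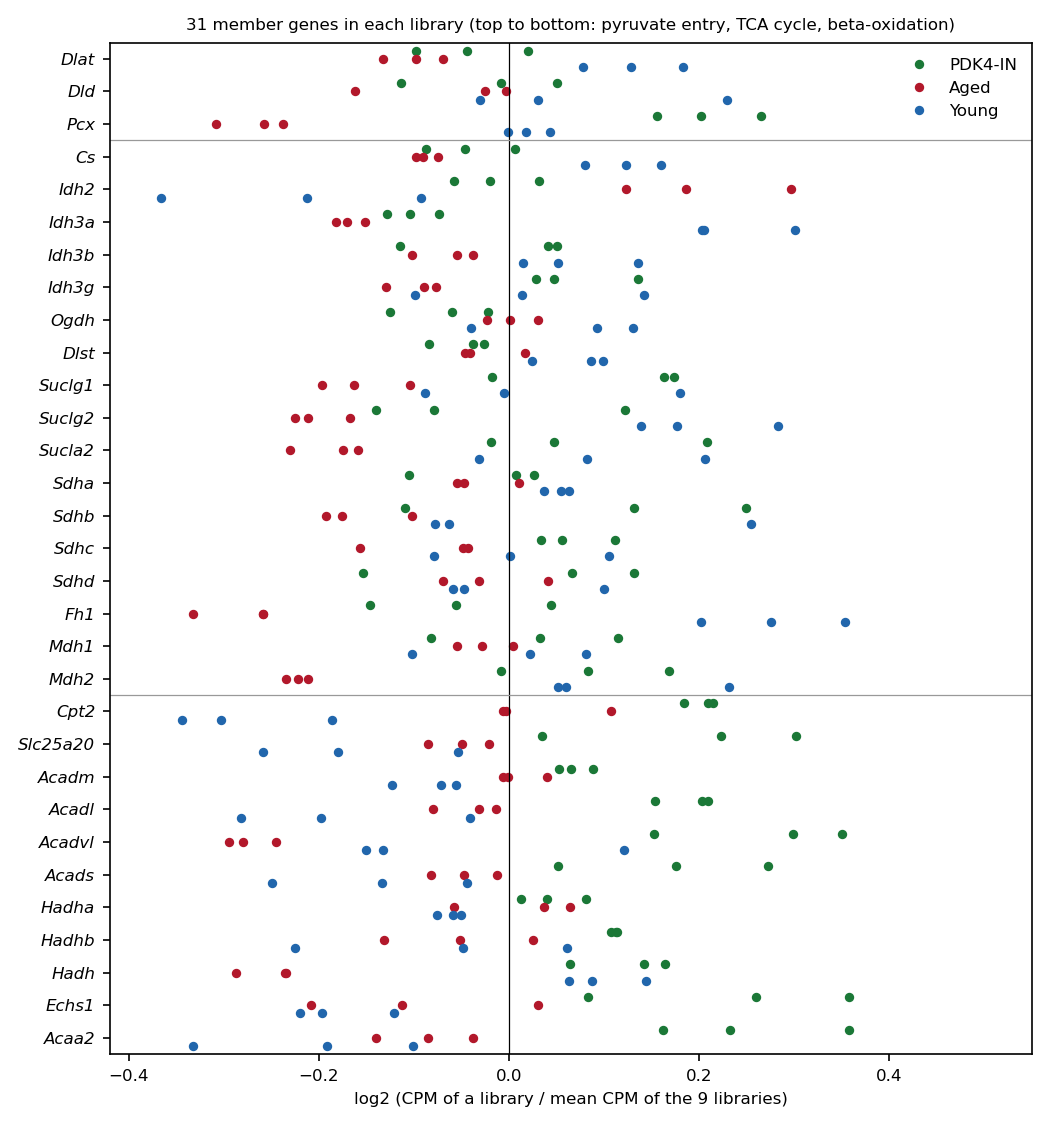
Level of each member in each of the 9 libraries, as log2 of its CPM over the mean CPM of all libraries, for PDK4-IN (green), Aged (red) and Young (blue), 3 points each. Young points lie furthest right for Cs, Idh3a and Fh1, Aged points lie furthest left for Mdh2, Suclg2 and Pcx, and PDK4-IN points lie right of the other groups for most genes in the bottom block, which holds beta-oxidation.

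Fatty acids cross the inner mitochondrial membrane on carnitine, carried by the translocase Slc25a20 and released by carnitine palmitoyltransferase 2, Cpt2. Cpt2 had 56.3, 57.5 and 57.3 CPM in PDK4-IN libraries, 49.4, 53.4 and 49.5 CPM in Aged libraries and 39.1, 43.6 and 40.2 CPM in Young libraries. Its groups stood in that order without overlap. Cpt2 rose in Aged against Young (0.30 ± 0.068, adjusted p = 0.0056), in PDK4-IN against Aged (0.18, adjusted p = 0.027) and in PDK4-IN against Young (0.45 ± 0.064, adjusted p = 0.000348), the only member that rose in all 3. Slc25a20 had 33.5, 38.2 and 40.3 CPM in PDK4-IN libraries, 32.2, 31.6 and 30.8 CPM in Aged libraries and 28.9, 27.3 and 31.5 CPM in Young libraries. PDK4-IN was highest, and Aged and Young overlapped. Slc25a20 rose in PDK4-IN against Aged (0.25, adjusted p = 0.0239) and in PDK4-IN against Young (0.32 ± 0.086, adjusted p = 0.0156). Its PDK4-IN against Aged call was lost without the gene-length trend (0.17, adjusted p = 0.0554) and on log2(TPM + 1) (0.091, adjusted p = 0.307), and that of Cpt2 on log2(TPM + 1) (0.054, adjusted p = 0.567). These are the genes whose promoter letters are printed above.

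The acyl-CoA dehydrogenases carry out the first dehydrogenation and differ in chain length. Acadvl, the very-long-chain enzyme, had 254, 281 and 292 CPM in PDK4-IN libraries, 188, 187 and 193 CPM in Aged libraries and 206, 209 and 249 CPM in Young libraries. Each PDK4-IN library exceeded each of the others, and Young replicate 3 was nearest to them. Acadvl rose by 46.6% in PDK4-IN against Aged (0.55 ± 0.061, adjusted p = 2.85e-05) and by 22.1% in PDK4-IN against Young (0.29 ± 0.080, adjusted p = 0.0184), and fell in Aged against Young (-0.24, adjusted p = 0.0255). The call of that fall was lost without Aged replicate 1, 2 or 3 (adjusted p = 0.0866, 0.0934 and 0.0634). The long-chain enzyme Acadl had 110.3, 115 and 114 CPM in PDK4-IN libraries, 97.0, 93.8 and 98.2 CPM in Aged libraries and 86.5, 81.6 and 96.4 CPM in Young libraries. It rose in PDK4-IN against Aged (0.24 ± 0.052, adjusted p = 0.00284) and against Young (0.33 ± 0.067, adjusted p = 0.00364), with PDK4-IN above all other libraries. The short-chain enzyme Acads rose in the same comparisons (0.23, adjusted p = 0.0204 against Aged, and 0.28, adjusted p = 0.0184 against Young). On log2(TPM + 1) with limma, the PDK4-IN against Aged calls of Acadl (0.086, adjusted p = 0.195) and Acads (0.033, adjusted p = 0.68) were lost. The medium-chain enzyme Acadm had 38.2, 37.6 and 37.2 CPM in PDK4-IN libraries, 35.9, 35.7 and 36.9 CPM in Aged libraries and 33.0, 34.2 and 34.5 CPM in Young libraries. Its groups did not overlap, yet no comparison passed the test (0.067 ± 0.060, adjusted p = 0.384 in PDK4-IN against Aged). The TPM ratio of Acadl to Acadm was 2.99 ± 0.20 in PDK4-IN libraries, 2.51 ± 0.31 in Aged libraries and 2.49 ± 0.29 in Young libraries (SD, n = 3 each), and the PDK4-IN libraries overlapped the Aged libraries.

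The later steps are shared between separate matrix enzymes for short chains and the trifunctional protein for long chains. Echs1, the short-chain enoyl-CoA hydratase, had 41.8, 50.6 and 47.3 CPM in PDK4-IN libraries, 34.2, 36.5 and 40.4 CPM in Aged libraries and 34.5, 33.9 and 36.3 CPM in Young libraries. Echs1 rose in PDK4-IN against Aged (0.34 ± 0.089, adjusted p = 0.00793) and against Young (0.39 ± 0.088, adjusted p = 0.00688). Its call against Aged was lost on log2(TPM + 1) with limma (0.196, adjusted p = 0.0833). Hadh, the short-chain hydroxyacyl-CoA dehydrogenase, had 64.2, 68.8 and 67.7 CPM in PDK4-IN libraries, 52.1, 52.2 and 50.3 CPM in Aged libraries and 64.2, 65.2 and 67.8 CPM in Young libraries. Its Aged libraries were lowest and the other 6 overlapped. Hadh fell in Aged against Young (-0.36 ± 0.058, adjusted p = 0.000591), rose in PDK4-IN against Aged (0.39 ± 0.058, adjusted p = 0.000285) and had -0.0054 ± 0.058 (adjusted p = 0.954) in PDK4-IN against Young. Acaa2, the matrix thiolase that releases acetyl-CoA, had 55.2, 58.0 and 63.2 CPM in PDK4-IN libraries, 48.1, 46.5 and 44.8 CPM in Aged libraries and 43.2, 39.2 and 46.0 CPM in Young libraries. PDK4-IN stood above both other groups, which overlapped. Acaa2 rose in PDK4-IN against Aged (0.35 ± 0.069, adjusted p = 0.0017) and against Young (0.43 ± 0.079, adjusted p = 0.00188). Hadha and Hadhb encode the alpha and beta subunits of the trifunctional protein, and their RefSeq starts on chromosome 5 (GRCm38.p6) lie 273 bases apart and face away from each other. Hadhb rose in PDK4-IN against Aged (0.17, adjusted p = 0.0241), whereas Hadha had 0.038 ± 0.051 (adjusted p = 0.569). The Hadhb call was lost in the fit of all 9 libraries (adjusted p = 0.0762), without the gene-length trend (0.12, adjusted p = 0.0609) and on log2(TPM + 1) (0.093, adjusted p = 0.328), and the difference between these neighbours was not tested.

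**Figure D3:**
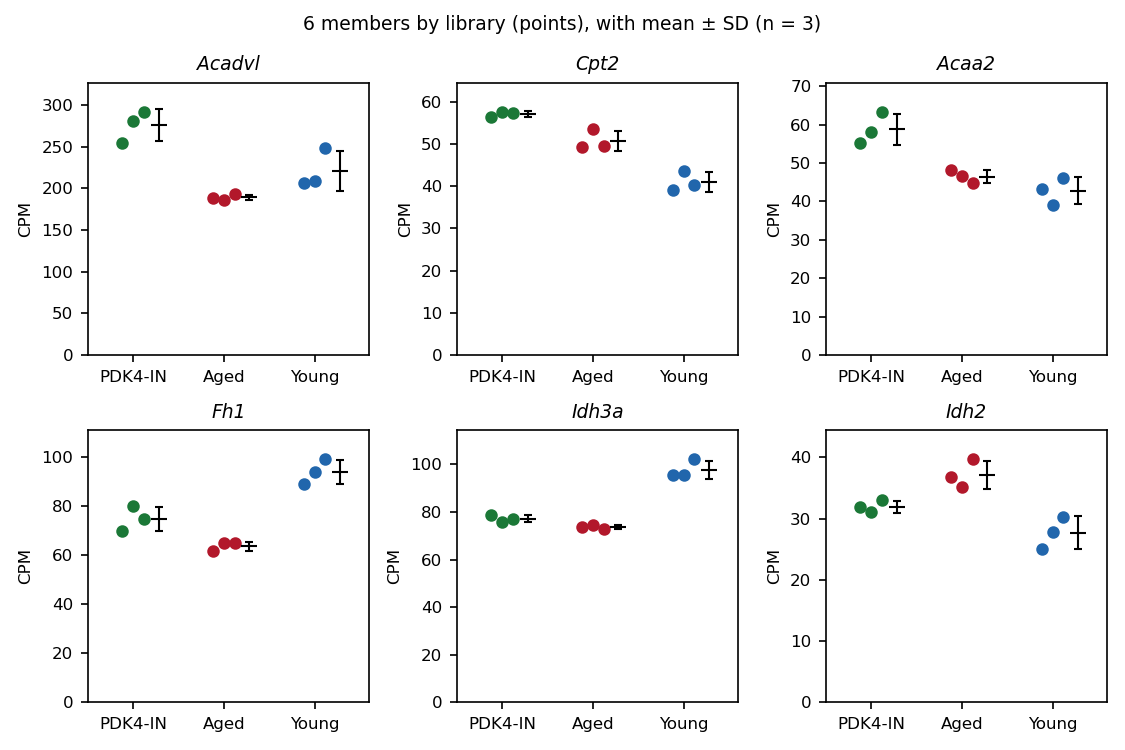
CPM of 6 members by library (points) in PDK4-IN, Aged and Young, with mean ± SD at the right of each group (n = 3), each axis starting at 0. Acadvl, Cpt2 and Acaa2 are highest in all PDK4-IN libraries, Fh1 and Idh3a are highest in all Young libraries, and Idh2 is highest in all Aged libraries.

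Across the 3 comparisons, 7 members were never called (Dld, Idh3b, Sdha, Sdhd, Mdh1, Acadm and Hadha). Another 5 rose with PDK4-IN against both other groups and were not called between Aged and Young, and all of these are beta-oxidation genes (Acaa2, Acadl, Acads, Echs1 and Slc25a20). In 4 members (Pcx, Sucla2, Mdh2 and Hadh) the level fell in Aged against Young, rose in PDK4-IN against Aged and was not called in PDK4-IN against Young. Among them, only Pcx had every PDK4-IN library above every Young library. By DESeq2, 1 of the 3 pyruvate entry genes was called higher in PDK4-IN against Young, and 0 by edgeR. In 4 others (Cs, Idh3a, Suclg2 and Dlat) it fell in both comparisons with Young and was not called between PDK4-IN and Aged. Of these 4, only Idh3a kept its PDK4-IN against Young call on the 6 libraries of that comparison alone. The patterns were not counted over all genes tested, so it is not known whether they are more common among the members. The reads of 9 members carried fractional counts in at least 1 library, in all 9 libraries for Ogdh, Acadvl and Echs1, so a part of their reads was divided between features and their values are less certain than those of the other 22.

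Summed over each role, beta-oxidation was higher with PDK4-IN on both scales. Its TPM summed to 776, 771 and 760 in PDK4-IN libraries, 699, 706 and 692 in Aged libraries and 701, 702 and 713 in Young libraries. In CPM the sums were 989, 1053 and 1061 in PDK4-IN libraries, 862, 847 and 863 in Aged libraries and 840.2, 827 and 919 in Young libraries. Acadvl made the largest single difference, averaging 194 TPM in PDK4-IN and 149.5 TPM in Aged libraries, where the sums averaged 769 and 699 TPM. Hadha (83.2 against 91.6 TPM) and Acadm (29.5 against 33.2 TPM) averaged lower in PDK4-IN than in Aged libraries, and the other beta-oxidation members higher. The TCA cycle differed by scale. It summed to 1774 ± 4.5 TPM in PDK4-IN libraries, 1773 ± 36 TPM in Aged libraries and 1997 ± 9.6 TPM in Young libraries (SD, n = 3 each), so only Young stood apart. In CPM it summed to 2217 ± 80 in PDK4-IN libraries, 2064 ± 14 in Aged libraries and 2332 ± 71 in Young libraries (SD, n = 3 each), where PDK4-IN also stood above Aged in every library. Pyruvate entry summed to 137 ± 10 TPM in PDK4-IN libraries, 139.7 ± 8.2 TPM in Aged libraries and 159.5 ± 4.2 TPM in Young libraries (SD, n = 3 each). The members were chosen with results of these data known, so no test was made of the sums.

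**Figure D4:**
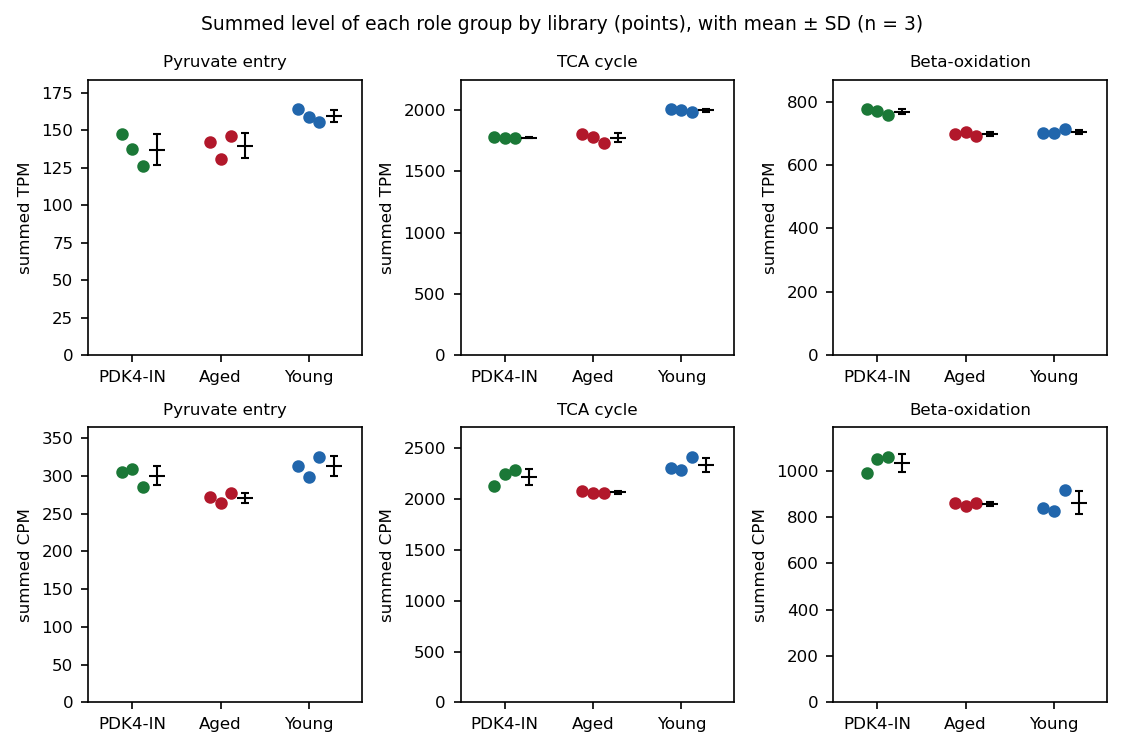
Summed TPM (upper row) and summed CPM (lower row) of the pyruvate entry, TCA cycle and beta-oxidation members in each library, with mean ± SD (n = 3) and axes starting at 0. Beta-oxidation is highest in the PDK4-IN libraries on both scales, and the TCA cycle is highest in Young by TPM, where PDK4-IN and Aged average 1774 and 1773 TPM.

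The counts in PDK4-IN against Aged depended on single libraries and on the unit. The 9 beta-oxidation genes became 5 without PDK4-IN replicate 2 or without Aged replicate 3, and the 7 TCA cycle genes became 3 without PDK4-IN replicate 2 or without Aged replicate 1 and 12 without PDK4-IN replicate 1. Of all genes tested, 3892 of 16275 rose as fitted, 4784 of 16796 without PDK4-IN replicate 1 and 3146 of 16797 without PDK4-IN replicate 2. Without Aged replicate 1 or 3, 3133 of 16661 and 3182 of 16665 rose. On log2(TPM + 1) with limma, a scale on which the median was -0.11 over all genes tested and 0.042 over the members, 3 beta-oxidation and 3 TCA cycle genes rose, and 5 members fell. Of all 16275 genes tested, 1841 rose and 4255 fell on that scale. That fit ended 11 of the 17 calls of higher members, those of Acadl, Acads, Cpt2, Echs1, Hadhb, Idh3g, Sdhb, Sdhc, Slc25a20, Sucla2 and Suclg1. Removing the gene-length trend ended 4 of the 17, those of Hadhb, Slc25a20, Idh3g and Sdhb. Leaving out 1 library ended 8 of the 17 at least once, adding Acads, Cpt2, Fh1 and Sdhc to these 4. With the 1.5-fold minimum set aside, 5 of the 17 (Acadvl, Hadh, Acaa2, Mdh2 and Pcx) were called in every alternative. Without Young replicate 3, 11 instead of 6 TCA cycle genes fell in Aged against Young. There 3845 of all 16708 genes tested fell, against 3060 of 16123 as fitted. In PDK4-IN against Young, the 7 beta-oxidation genes became 4 without PDK4-IN replicate 2 or 3 or Young replicate 1 or 2, and the 6 TCA cycle genes became 3 without PDK4-IN replicate 3. Of all genes tested, between 1312 of 17030 and 1441 of 16954 rose in these 4 fits, against 2202 of 16553 as fitted. Without PDK4-IN replicate 3, 1796 fell, against 2594 as fitted. The beta-oxidation calls of Acadvl, Acads and Slc25a20 were each lost in those 4 fits.

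Other genes of the same pathways were read from a list of 91, of which 88 were tested. In Aged against Young 19 rose and 23 fell, in PDK4-IN against Aged 33 rose and 13 fell, and in PDK4-IN against Young 20 rose and 8 fell. As shares of the 88, these are 21.6% and 26.1%, 37.5% and 14.8%, and 22.7% and 9.09%, beside the shares of all genes given above (21.4% and 19.0%, 23.9% and 25.7%, and 13.3% and 15.7%), so the share that rose in Aged against Young lay at that of all genes. Pdk4, whose product the compound inhibits, had 63.1, 61.3 and 56.4 CPM in PDK4-IN libraries, 79.3, 75.6 and 71.2 CPM in Aged libraries and 26.1, 26.6 and 23.4 CPM in Young libraries. Aged was highest and no groups overlapped. Its mRNA rose in Aged against Young (1.56 ± 0.073, adjusted p = 4.06e-08), fell in PDK4-IN against Aged (-0.32 ± 0.062, adjusted p = 0.00153) and rose in PDK4-IN against Young (1.21 ± 0.072, adjusted p = 4e-07). A related kinase, Pdk1, had log2 fold changes of 1.27 in Aged against Young (adjusted p = 6.64e-08), -0.57 in PDK4-IN against Aged (adjusted p = 7.9e-05) and 0.67 in PDK4-IN against Young (adjusted p = 6.25e-05).

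At the outer membrane, the gate of fatty acid import was lower in PDK4-IN against Aged while Cpt2 and Slc25a20 were higher. Cpt1a, the carnitine palmitoyltransferase of the outer membrane, had 211, 187 and 173 CPM in PDK4-IN libraries, 244, 246 and 256 CPM in Aged libraries and 134, 138 and 117 CPM in Young libraries. It rose in Aged against Young (0.93 ± 0.067, adjusted p = 1.44e-06), fell in PDK4-IN against Aged (-0.38 ± 0.063, adjusted p = 0.000559) and rose in PDK4-IN against Young (0.52 ± 0.075, adjusted p = 0.000353). Acsl1, which activates long-chain fatty acids to acyl-CoA, had 14.5, 14.5 and 12.7 CPM in PDK4-IN libraries, 44.9, 47.8 and 46.6 CPM in Aged libraries and 17.6, 15.8 and 13.8 CPM in Young libraries. It was high in Aged libraries alone, with log2 fold changes of 1.55 in Aged against Young (adjusted p = 2.08e-07) and -1.73 in PDK4-IN against Aged (adjusted p = 8.45e-09). The macrophage markers were also highest in Aged libraries, though their sum was higher in PDK4-IN than in Young libraries. A link to Acsl1 was not tested. Another activating enzyme, Acsl4, had 0.75 in Aged against Young (adjusted p = 4.76e-06) and -0.61 in PDK4-IN against Aged (adjusted p = 3.99e-05). In the auxiliary steps, the electron acceptor subunit Etfb (0.62, adjusted p = 0.00012), the thioesterase Acot13 (0.72, adjusted p = 4.79e-05) and the peroxisomal thiolase Acaa1b (0.89, adjusted p = 4.92e-05) rose in PDK4-IN against Aged, and each fell in Aged against Young (-0.28, -0.61 and -0.67, adjusted p = 0.0151, 0.0011 and 0.000863). Eci1, an enoyl-CoA isomerase for unsaturated chains, and Pecr, a peroxisomal enoyl-CoA reductase, fell in Aged against Young by 0.51 (adjusted p = 0.000553) and 0.71 (adjusted p = 0.000607) on the log2 scale, and rose in PDK4-IN against Aged (0.55, adjusted p = 0.000279 and 0.59, adjusted p = 0.00422). Acot2, a mitochondrial acyl-CoA thioesterase, rose in both PDK4-IN against Young (0.72, adjusted p = 0.000311) and Aged against Young (0.71, adjusted p = 0.000185), with 0.040 (adjusted p = 0.754) in PDK4-IN against Aged.

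Around the cycle, Ogdhl, a paralog of Ogdh, fell in Aged against Young (-0.61 ± 0.054, adjusted p = 7.97e-06) and rose in PDK4-IN against Aged (0.74 ± 0.053, adjusted p = 7.93e-07). Glutamate dehydrogenase Glud1, which feeds oxoglutarate to the cycle, fell in Aged against Young (-0.30, adjusted p = 0.000438) and in PDK4-IN against Young (-0.29, adjusted p = 0.000694). The mitochondrial malic enzyme Me2 fell in PDK4-IN against Aged (-0.47, adjusted p = 8.21e-05) and against Young (-0.38, adjusted p = 0.0014), while the cytosolic isocitrate dehydrogenase Idh1 rose in PDK4-IN against Young (0.38, adjusted p = 0.000306), in Aged against Young (0.23, adjusted p = 0.00644) and in PDK4-IN against Aged (0.17, adjusted p = 0.0197). Pprc1, a coactivator related to PGC-1, fell in PDK4-IN against Young (-0.36, adjusted p = 0.00107) and in Aged against Young (-0.21, adjusted p = 0.0138), and was not called in PDK4-IN against Aged (-0.12, adjusted p = 0.127).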

How the data were processed

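Total RNA of laser-captured alveolar cells was sequenced as paired reads after TruSeq preparation, 3 libraries a group. The submitters' processing notes name Bowtie 0.12.2 and build GRCm39, and the study's methods name RSEM and a human annotation under human cell lines, without saying what was used for these mouse libraries. For every gene, unnormalized expected counts (estimated, partly fractional) were deposited by the authors. The authors also deposited TPM for each library, and gene length. Deposited columns of their own DESeq2 comparisons (fold change, p-value, direction) and of group mean TPM were not used. Sheet titles within both tables mention bleomycin (the second also PCC1), whereas columns and labels name Young, Aged and PDK4-IN. Columns were assigned by name. Counts were rounded and tested with edgeR 4.0.16 in R 4.3.3 (filterByExpr, minimum count 10, TMM, quasi-likelihood test, Benjamini-Hochberg over all genes tested), with 6 libraries per comparison and all 9 for PDK4-IN against Young. Log2 fold changes are the group named earlier over the group named later, and the SE is the log2 fold change divided by the root of the F statistic. Alternatives used DESeq2 1.42.0 and limma 3.58.1. The code was tested on simulated data. Members and lists were chosen with earlier results of these data known. All members were accounted for, and at most 10 per comparison (lowest adjusted p) carried full statistics with the SE beside their calls. Of each list of other genes, the 2 called genes with the lowest p in each direction were eligible, at most 8 per comparison, with Pdk4 and Cpt1a in any case. A further gene that this rule named is not reported here.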

Additional observations from a re-analysis of the deposited data

How the results depend on the processing

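The counts of members called in each direction and comparison, and the TCA cycle and beta-oxidation counts given above, stayed within 1.5 times their value with DESeq2 size factors in edgeR, library totals, no filter on low counts and the replicate block. With a minimum of 1.5-fold every count was 0. DESeq2 gave 0 members lower in PDK4-IN against Aged, and so did the fit of all 9 libraries, with 4 TCA cycle members higher. The fit of PDK4-IN against Young on its own 6 libraries gave 2 members lower, both TCA cycle genes. Removing the gene-length trend gave 10 TCA cycle members lower in Aged against Young, beside 3563 of all 16123 genes tested. On log2(TPM + 1) with limma, chosen after seeing the data, 7 members rose and 5 fell in PDK4-IN against Aged, with 3 TCA cycle and 3 beta-oxidation members higher, and Sdhc was reversed at -0.061. Of all 16275 genes tested, 1841 rose and 4255 fell there. The cause of these differences was not tested.

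Leaving out each replicate in turn gave 2–4 members higher and 9–15 lower in Aged against Young (6–11 TCA cycle members lower). In PDK4-IN against Aged it gave 9–22 members higher and 0–1 lower, with 3–12 TCA cycle and 5–9 beta-oxidation members higher. In PDK4-IN against Young it gave 4–9 members higher and 3–7 lower, with 3–6 TCA cycle members lower and 4–8 beta-oxidation members higher. Over all genes tested, these fits gave 2723–3895 higher and 2104–3845 lower in Aged against Young. They gave 3080–4784 and 3469–4714 in PDK4-IN against Aged, and 1312–2759 and 1764–3417 in PDK4-IN against Young.

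Same-numbered libraries correlated in their deviations from group means by -0.040 to 0.18 over genes, and differently numbered libraries by -0.225 to 0.13. These overlapping ranges do not settle whether replicate numbers pair the libraries. With the replicate block, 16 members rose and 1 fell in PDK4-IN against Aged, against 17 and 1 without it, and 2 rose and 10 fell in Aged against Young.

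Summed CPM in place of TPM moved the ratio of PDK4-IN to Aged to 1.07 for the TCA cycle, 1.21 for beta-oxidation and 1.11 for pyruvate entry, and that of PDK4-IN to Young to 0.951, 1.2 and 0.96. By TPM these ratios were 1, 1.1 and 0.981, and 0.888, 1.09 and 0.859. The 44 called log2 fold changes of single members kept their direction and call in 589 alternative values, kept only the direction in 156 and were reversed in 1. The 1.5-fold minimum counts as 1 of these alternatives, and no member could be called under it. It gave 12, 18 and 14 of the 156 lost calls in Aged against Young, PDK4-IN against Aged and PDK4-IN against Young. In the same order it gave 19, 13 and 17 of the 775 values below that stayed uncalled. The 49 uncalled ones stayed uncalled in 775 alternative values, gained a call in the same direction in 58 and turned with a call in 2, both in PDK4-IN against Aged on log2(TPM + 1) (Idh3b at -0.14 and Sdha at -0.19).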
